A study of Mus musculus with 16 samples.

Results

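This account describes 387 isolated H3K4me3 regions of the mouse testis, single sites that all 3 lines shared and that stood alone in long stretches without any other peak. Overlapping peaks of the 3 deposited lists on chromosomes 1 to 19 were joined into 59204 regions. Of these, 34977 held a peak in every list, and 28965 of the shared ones had exactly 1 peak per list and a merged width above 800 and under 4000 bp. The last group is called eligible here. An eligible region was isolated when no other region of any list lay within 100 kb of either edge, which left 387, or 1.34% of the eligible regions (95% Wilson interval 1.21 to 1.47). The regions were chosen by the peak calls themselves (presence, width, number and position of peaks in each list), so their sharing, width and isolation are no findings, and their enrichment values, which belong to the same calls, are given as descriptions without a test.

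H3K4me3 is trimethylation of lysine 4 on histone H3, a mark found at active promoters in most cell types. In germ cells entering meiosis it is also written by PRDM9, a methyltransferase whose zinc fingers recognise a DNA motif, and recombination starts with double-strand breaks near the sites marked in this way. Mammalian chromosomes also contain gene deserts, long stretches with few or no genes. A site there has few promoters around it, and such stretches can hold promoters of single genes, distant regulatory elements, retroelement-derived starts of transcription or PRDM9 sites.

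H3K4me3 was profiled by ChIP-seq in whole testis of mice aged 13 days post-partum, per the labels, with 2 libraries and 1 input for each line. The B6 group was C57BL/6JOlaHsd without a transgene. The B6-TgWT group was C57BL/6J-Tg(RP23-159N6*)43Bdm and the B6-TgYF group C57BL/6JRj-Tg(RP23-159N6*)23Bdm. From what is known of the study, both transgenes are Prdm9 copies with the zinc fingers of another mouse subspecies, active in the WT form and altered in the methyltransferase domain in the YF form. The labels of these 3 groups name no Prdm9 deletion. Each transgene was seen in 1 line, and each line came from a different C57BL/6 substrain, so transgene and substrain cannot be told apart. The other 7 of 16 samples were DMC1 ChIP libraries and were not analysed here. Whole testis at this age mixes germ cells and somatic cells, and a mark in fewer cells cannot be told apart from a weaker mark in each cell. The tissue was not checked against marker genes, because no annotation of the mm9 build was used here. For the same reason no region below is tied to a gene, and no sequence is shown.

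Each line had 1 list for both of its libraries, so the spread between replicates is not known for any value below. The lists held 50013 (B6), 46631 (B6-TgWT) and 41558 (B6-TgYF) peaks on chromosomes 1 to 19. Read depth is unknown, since the lists hold no read counts. The deposited fold enrichment is the authors' ratio of ChIP to background at a peak. Strength is also given as the percentile of that fold within its own list, where 100 is the strongest peak, and as the mean of the 3 percentiles. Intervals cover counting error over regions only, and regions are not replicates.

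The isolated regions sat in wide gaps. The distance to the nearest other region had a median of 142.8 kb (quartiles 114.8 to 192.6, longest 754.0), against a median of 7.51 kb over all eligible regions. The longer of the 2 flanking gaps had a median of 260.1 kb and reached 1702.1 kb. For the 383 regions with a neighbour on both sides, the whole stretch between the neighbours had a median of 411.9 kb (quartiles 302.9 to 580.8), and in 16 cases it was over 1 Mb. Joined where they overlapped, these stretches covered 179.3 Mb, or 7.44% of the span between the first and last region of each chromosome. The other 4 regions were the first or last region of their chromosome. They lay at chr6:3132497-3133883, which had no region before it, and at chr5:152452645-152454320, chr9:124040000-124040816 and chr12:121183774-121185604, which had none after them.

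The region farthest from any other lay at chr1:118417654-118418842 (mm9). Its neighbours were 835.5 kb before it and 754.0 kb after it, and its deposited folds were 6.84 (B6), 4.32 (B6-TgWT) and 3.66 (B6-TgYF). The second lay at chr17:39147755-39148773, with gaps of 692.2 and 831.3 kb and folds of 8.82, 4.97 and 7.77 in the same order. The third, at chr15:46829801-46831124, had gaps of 623.8 and 883.6 kb and folds of 5.0, 3.37 and 3.3. The fold was highest in B6 in each, as at 73.0% of all eligible regions, and none had a region of all 3 lists as a neighbour on either side, as at 36.7% of the isolated sites. The next was at chr17:20515537-20516475, 932.6 kb after a region of the B6-TgWT list alone, and here the fold was highest in B6-TgWT (7.26, against 7.03 in B6 and 5.48 in B6-TgYF). The fifth, at chr6:133054591-133056351, had 1476.1 kb without a peak before it and folds of 10.34, 7.41 and 9.78.

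The other 5 of the 10 farthest regions lay at chr14:91766900-91768145, chr14:113152446-113154043 and chr14:83141031-83142000, at chr6:59927354-59929060 and at chr10:129111054-129113093. Over all 10, the fold ran from 5.0 to 10.34 (B6), 3.37 to 7.41 (B6-TgWT) and 3.3 to 9.78 (B6-TgYF). In 9 of the 10, the mean percentile was below 50, and the exception was the chromosome 6 region at 133054591, at 58.36. So the most remote sites were of middling or low strength in every list. Of the 10, 3 had a region of the B6-TgWT list alone as a neighbour, 6 one of the B6 list alone and 6 a shared region, and over all 387 the shares were 42.6%, 38.5% and 62.8%.

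**Figure D1:**
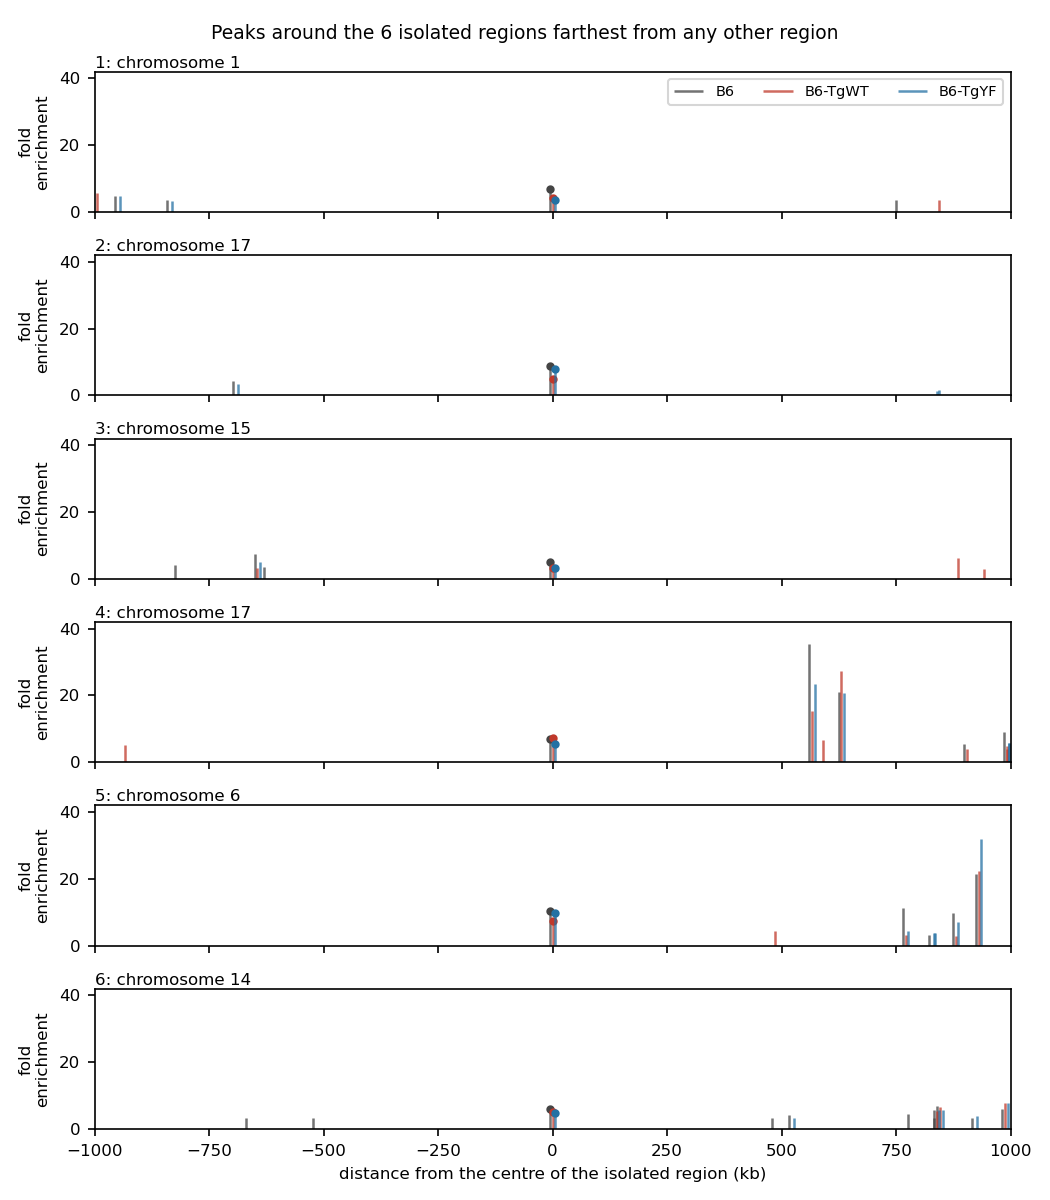
Fold enrichment (vertical axis, ratio to background) of every peak within 1000 kb of the 6 isolated regions farthest from any other, against distance from the region's centre in kb, with 1 line per peak and 1 colour per list. Dots mark the isolated region itself, and lines of the B6 and B6-TgYF lists are moved by 6 kb to the left and right so that they do not hide each other. The centre site stands alone for at least 483.4 kb on each side, and many of the flanking sites are present in only 1 or 2 colours.

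The isolated regions were weaker in the lists than shared regions of the same kind with a neighbour. The comparison is with the 28578 eligible regions that had another region within 100 kb. The median fold of the isolated regions was 8.75 for B6 (quartiles 6.37 to 17.09), 6.31 for B6-TgWT (4.55 to 13.11) and 6.67 for B6-TgYF (4.71 to 14.04). The comparison regions had medians of 12.87, 9.08 and 10.22. The direction was the same in each list, and the ranges overlapped widely, since isolated regions reached folds of 38.68, 33.43 and 36.96.

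Within the B6 list, 59.7% of the isolated regions lay above the list's median fold (interval 54.7 to 64.5), against 75% of the comparison regions. For B6-TgWT peaks the shares were 45.2% (40.3 to 50.2) and 62.7%. For B6-TgYF peaks they were 42.6% (37.8 to 47.6) and 63.1%. The strongest decile of each list held 33 (B6, 8.53%), 25 (B6-TgWT, 6.46%) and 20 (B6-TgYF, 5.17%) isolated regions. The comparison regions had 15.5%, 14.6% and 13% there, so the isolated sites held smaller shares at the top without being absent from it. The mean percentile over the 3 lists had a median of 45.75 for isolated and 62.7 for comparison regions, a difference of -16.95 points.

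**Figure D2:**
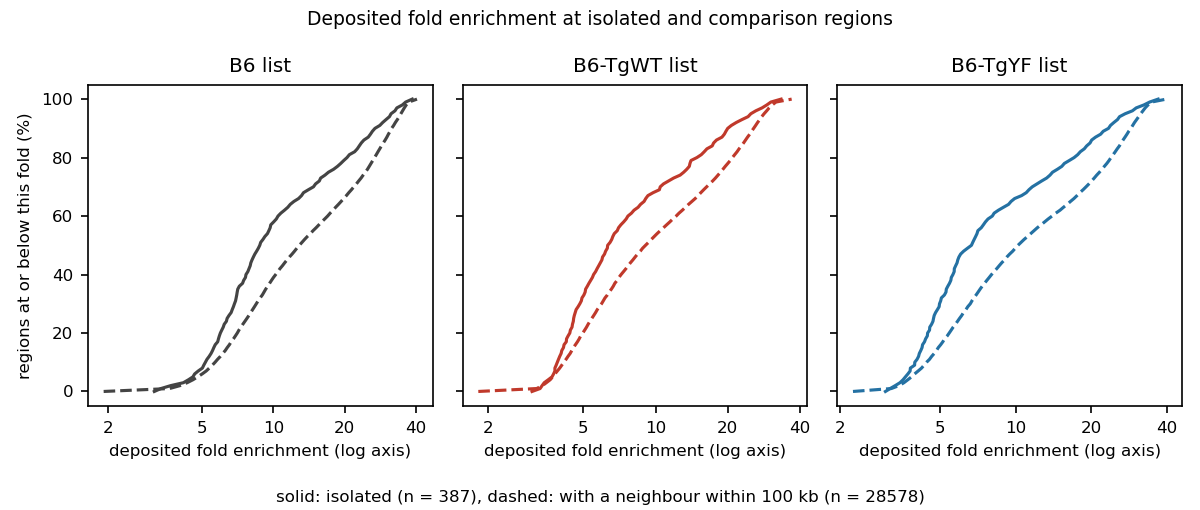
Share of regions (vertical axis, %) at or below each deposited fold enrichment (horizontal log axis), for the 387 isolated regions (solid) and the 28578 comparison regions (dashed), 1 panel per list. The solid line rises earlier in every panel, with medians of 8.75 against 12.87 in B6, 6.31 against 9.08 in B6-TgWT and 6.67 against 10.22 in B6-TgYF.

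Width and strength went together. The median merged width of isolated regions was 1483 bp, with an interval of 1387 to 1551 that includes the 1543 bp of comparison regions. Wider regions were stronger (Spearman's rho across the 387 isolated regions 0.597, as a description). The 118 isolated regions of 800 to 1200 bp had a median mean percentile of 34.13, against 39.24 for comparison regions of that width. At 1200 to 1600 bp the values were 39.36 (112 regions) and 54.1. At 1600 to 2000 bp they were 63.14 (65 regions) and 74.69. Isolated regions were lower in each of the 5 width bins, and the differences of -5.11, -14.74, -11.54, -9.52 and -6.63 averaged -9.79 when weighted by the number of isolated regions. That average is another statistic than the difference of the medians. With peaks under a −log10 p of 20 removed from every list, which changes the regions, their neighbours and the percentiles together, the difference was -6.74, and with an isolation distance of 50 kb it was -8.97.

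Strength did not follow distance in one direction. Among eligible regions, the median mean percentile was 60.75 for the 3832 with a neighbour within 1 kb, 62.24 for the 13153 at 1 to 10 kb, 65.51 for those with a neighbour at 10 to 25 kb, 63.96 at 25 to 50 kb and 56.73 at 50 to 100 kb. Among isolated regions it was 51.31 for the 206 at 100 to 150 kb (interval 46.19 to 59.28) and 37.1 for the 99 at 150 to 200 kb (34.13 to 46.37). Farther out it was no lower, with 39.28 for the 49 at 200 to 300 kb (35.09 to 58.79) and 44.51 for the 33 beyond 300 kb (33.11 to 50.64). These 2 intervals overlap the one at 150 to 200 kb. The interval at 50 to 100 kb (54.07 to 60.43) also overlaps the one at 100 to 150 kb. Across the 387 regions, Spearman's rho between distance and mean percentile was -0.154, where all points share the same 3 lists.

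**Figure D3:**
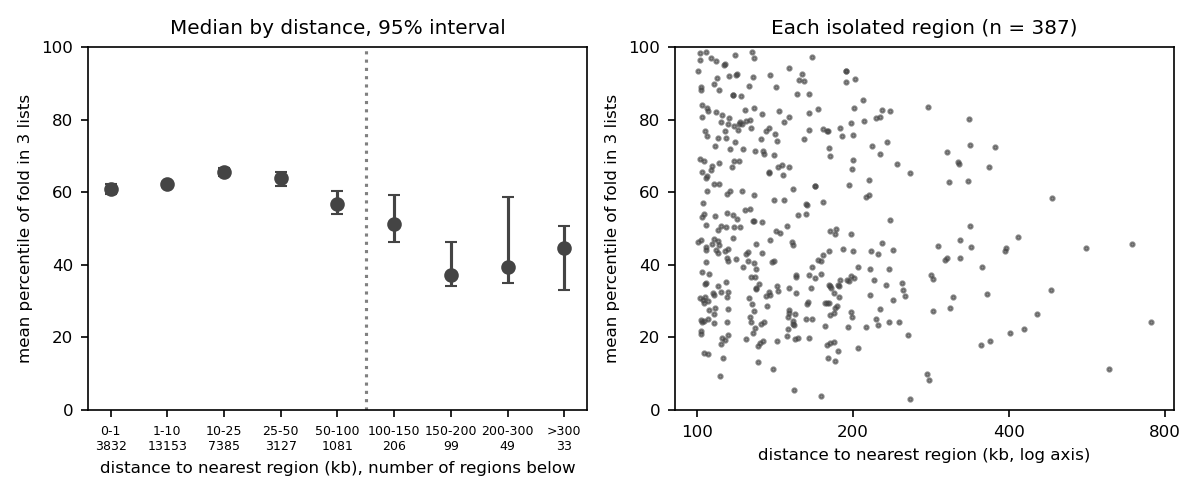
Left, median of the mean percentile of fold in the 3 lists (vertical axis) by distance to the nearest region in kb, with 95% order-statistic intervals, for all eligible regions and with the number of regions under each bin. The dotted line marks 100 kb. Right, the same measure for each of the 387 isolated regions against distance on a log axis. The median goes from 60.75 within 1 kb to 65.51 at 10 to 25 kb and 37.1 at 150 to 200 kb, and the 10 strongest isolated regions lie 101.2 to 166.3 kb from their nearest neighbour.

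The strongest isolated regions were named as the 10 with the highest mean percentile (95.35 to 98.73), so high folds in each list follow largely from that choice. Within the B6 list their percentile went down to 88.7. The first was at chr18:10180444-10183197, with folds of 34.42, 33.43 and 36.71 in the B6, B6-TgWT and B6-TgYF lists and gaps of 127.8 and 140.8 kb. The second was at chr13:77273634-77275682, with folds of 35.37, 31.64 and 34.14. The third was at chr4:48291345-48293521, with folds of 36.22, 28.38 and 36.96. In these 3 regions the summits of the 3 lists lay within 23, 7 and 9 bp of each other. The next 7 were at chr11:23396564-23398933, chr6:95667998-95669433, chr8:40068347-40070112, chr18:10324024-10326483, chr1:121544026-121546147, chr17:51316977-51319442 and chr3:75359526-75362924. Over these 10, folds ran from 27.89 to 36.77 (B6), 27.75 to 33.43 (B6-TgWT) and 31.91 to 36.96 (B6-TgYF), and the nearest region was 101.2 to 166.3 kb away. Of the 10, 6 had a region of the B6-TgWT list alone as a neighbour, 3 one of the B6 list alone and 6 a shared region, against 42.6%, 38.5% and 62.8% of all isolated regions.

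The weakest isolated regions had folds between 3.05 and 4.06 in every list. The first lay at chr10:37375742-37376635 (3.16, 3.36 and 3.45 in the B6, B6-TgWT and B6-TgYF lists). The others were at chr14:124237880-124239248, chr1:106409186-106410155, chr18:26729600-26730472 and chr12:65071125-65072043. Their mean percentiles ran from 3.02 to 9.31 and their widths from 873 to 1369 bp. Isolated sites thus came from both ends of the range of strength.

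Around the 100 kb limit the values were mixed. The 5 regions just inside it had their nearest neighbour at 100.2 to 101.3 kb and mean percentiles from 46.19 to 98.32. They lay at chr5:32912400-32915124, chr12:80701103-80702585, chr3:134491452-134493212, and at the sites of chromosomes 4 and 1 starting at 48291345 and 121544026 already named among the strongest. The 5 just outside it had their nearest neighbour at 99.5 to 99.9 kb and mean percentiles from 35.21 to 92.08. These lay at chr12:16406781-16409449, chr4:13073650-13074518, chr3:110051950-110054801, chr14:68332470-68335648 and chr14:69646867-69648629.

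The regions that bordered the empty stretches were often not shared. Of the 770 flanking regions of the isolated sites, counted on both sides, 306 (39.7%, interval 36.3 to 43.2) had a peak in every list, against 62.6% of those next to comparison regions. Regions of the B6-TgWT list alone made up 24.9% (22 to 28.1) against 13.4%, and regions of the B6 list alone 21.3% (18.6 to 24.3) against 13.4%. Regions of B6 and B6-TgYF without B6-TgWT made up 9.48% (7.61 to 11.8) against 7.83%. A shared region stood on both sides of 63 isolated sites (16.3%), and on neither side of 142 (36.7%). Neighbours of the B6-TgWT list alone were 1219 bp wide at the median with a median fold of 5.01, and those of the B6 list alone were 568 bp wide with a median fold of 3.81. Next to comparison regions the corresponding values were 1210 bp and 5.19, and 597 bp and 3.82. Where the neighbour was itself shared with 1 peak per list, its mean percentile had a median of 43.73 next to isolated sites and 60.43 next to comparison sites. Of these 299 neighbours of isolated sites, 70 were themselves isolated regions, and without isolated regions among the neighbours the medians were 44.18 and 60.49.

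Which regions counted as isolated depended on peaks found in 1 or 2 lists. Counting only shared regions as neighbours, 1511 eligible regions had none within 100 kb, and the 387 isolated ones were 25.6% of them. The other 1124 had a region of 1 or 2 lists nearby. For 246 of these (21.9%) every such region was of the B6-TgWT list alone, for 216 (19.2%) of the B6 list alone, for 79 (7.03%) of B6 and B6-TgYF, and for 10 (0.89%) of the B6-TgYF list alone. Over all 59204 regions these classes held 8930, 8517, 4959 and 449 in the same order, so the counts follow the order of class size. With the B6-TgWT list left out altogether, regions shared by the other 2 lists and isolated from both numbered 756, against 578 without the B6 list and 427 without the B6-TgYF list. Leaving a list out also makes more regions shared. Of any width, these were 4959 without B6-TgWT, 69 without B6 and 1303 without B6-TgYF. The counts of isolated regions thus mix newly shared regions with lost neighbours. The 1124 are themselves part of the comparison regions. Their median mean percentile was 51.24, against 45.75 for isolated and 62.7 for all comparison regions.

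Some isolated regions were each other's neighbours. There were 35 such pairs, with 106.9 to 1476.1 kb (median 221.3) between their edges, and 0 runs of 3 or more. The strongest pair was made of the chromosome 18 regions at 10180444 and 10324024, 140.8 kb apart, which ranked first and seventh of the 387. In the widest pair, the chromosome 6 region at 133054591 stood 1476.1 kb after the one at 131576612 to 131578467. Both members had a mean percentile above 50 in 6 pairs and at or below 50 in 15, and the other 14 pairs held 1 of each. Among all 387 regions, 174 (45%) were above 50.

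The next question was whether the lines differed at these sites. Raw folds of separate lists are not on a common scale, and the B6 fold was the highest of the 3 at 296 isolated regions (76.5%), against 73.0% of all eligible regions. B6-TgWT was highest at 30 (7.75%, against 7.67%) and B6-TgYF at 60 (15.5%, against 19.2%). These shares were close to those of the eligible regions. Each fold was therefore ranked over the same 28965 eligible regions in every list, from 0 to 100. The isolated regions had median ranks of 32.04 (B6), 33.5 (B6-TgWT) and 31.05 (B6-TgYF), while comparison regions had 50.21, 50.21 and 50.2.

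A rank that differed by over 20 points between any 2 lists was found at 71 isolated regions (18.3%, interval 14.8 to 22.5), against 23.6% of eligible regions. At over 10 points the shares were 54.3% and 61.4%. From B6 to B6-TgWT, 24 ranked higher (6.2%, interval 4.2 to 9.06, against 6.69% of eligible regions) and 19 lower (4.91%, interval 3.17 to 7.54, against 6.38%). From B6 to B6-TgYF, 10 ranked higher (2.58%, interval 1.41 to 4.69, against 5.53%) and 13 lower (3.36%, interval 1.97 to 5.66, against 5.04%). All 4 shares were below those of the eligible regions, untested, and both comparisons use the same B6 list. Except for the 2.58%, their intervals included the share of the eligible regions. The shares were not compared at matched rank. Between the transgenic lists, 25 had the higher rank in the B6-TgWT list (6.46%, interval 4.41 to 9.36, against 5.36%) and 10 lower (2.58%, interval 1.41 to 4.69, against 5.63%). The median difference of that pair was 1.07 points (quartiles -3.93 to 7.81), against 0.13 (-6.75 to 6.7) at comparison regions. No error can be put on a shift, since each line had 1 list.

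The largest shifts were not all of one kind. The region at chr6:78502149-78504679 had folds of 4.93, 9.13 and 4.71 in the B6, B6-TgWT and B6-TgYF lists, and the region at chr4:23909402-23910894 had 5.65, 9.25 and 4.71. Both stood out in the B6-TgWT list. The region at chr13:80244246-80245601 was low in the B6-TgYF list, with 10.02, 7.69 and 3.47. The region at chr17:90487235-90488248 (15.0, 7.11 and 4.95) and the region at chr15:40809779-40811428 (14.54, 4.73 and 8.19) stood highest in B6. In the first of the 5 the summits of the 3 lists lay 723 bp apart, while in the chromosome 13 region they lay within 32 bp.

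**Figure D4:**
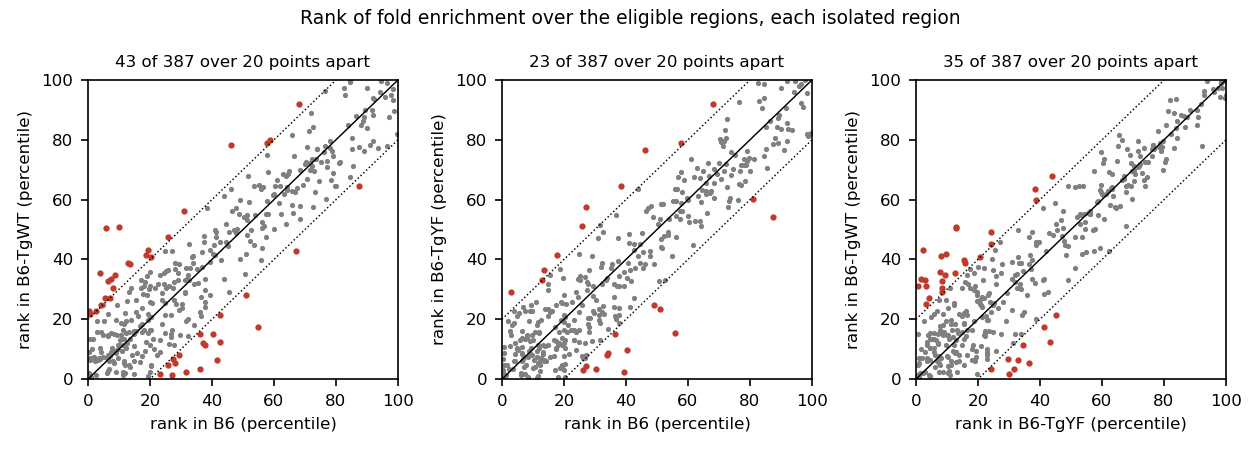
Rank of fold enrichment (0 to 100, over the 28965 eligible regions) of each of the 387 isolated regions in 2 lists at a time, with 1 point per region. The solid line marks equal ranks, the dotted lines 20 points of difference, and red points lie beyond them. Most points follow the diagonal and sit in the lower left, with medians of 32.04 (B6), 33.5 (B6-TgWT) and 31.05 (B6-TgYF).

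The peaks of an isolated region usually pointed to the same place. The outermost of the 3 summits were 68 bp apart at the median (quartiles 27 to 172), against 63 bp (29 to 128) at comparison regions. They fell within 50 bp of each other at 158 isolated regions (40.8%, interval 36 to 45.8), against 42% of comparison regions, and within 100 bp at 235 (60.7%, interval 55.8 to 65.5), against 67.3%. At 20 isolated regions (5.17%, interval 3.37 to 7.85) they were over 500 bp apart, against 3.36%. Summits sat near the middle of the peaks, at a median of 50.1% of the peak's length (B6), 50.7% (B6-TgWT) and 50.1% (B6-TgYF). Peak widths at the isolated sites had medians of 1401, 1300 and 1262 bp in that order.

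Every one of the 19 chromosomes held isolated regions. Chromosome 18 had the highest share of its eligible regions isolated, 23 of 940 or 2.45% (interval 1.64 to 3.64), followed by chromosomes 1 (39 regions, 2.14%, interval 1.57 to 2.91) and 14 (23 regions, 2.14%). Chromosome 11 had the lowest, 13 of 2112 or 0.616% (interval 0.36 to 1.05), then chromosomes 19 (6 regions, 0.656%) and 5 (14 regions, 0.706%). The intervals of chromosomes 18 and 11 do not overlap, while those of chromosomes 18, 1 and 14 do. Chromosomes 18 and 11 were picked as the extremes of the 19 shares, so this is a description and no test. The share was lower where eligible regions were denser. Chromosome 11 had 17.8 of them per Mb and chromosome 14 had 9.0, and Spearman's rho over the 19 chromosomes was -0.859, where both measures come from the same regions. A fixed distance rule leaves fewer regions isolated where regions are denser, so this relation is in part built in.

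**Figure D5:**
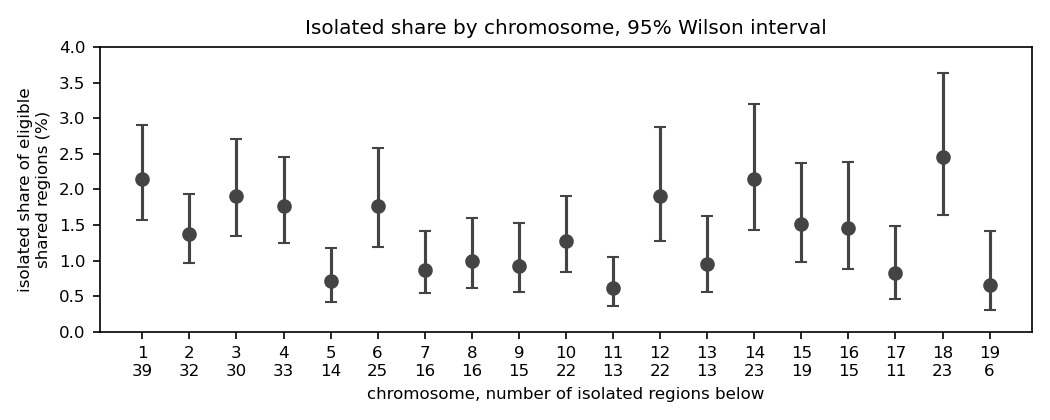
Share of eligible shared regions that were isolated (vertical axis, %) on each of the 19 chromosomes, with 95% Wilson intervals and the number of isolated regions under each chromosome. The share goes from 0.616% on chromosome 11 to 2.45% on chromosome 18.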

How the data were processed

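Per the submitters' processing notes, reads were handled on build mm9 with MACS2, BWA, Bowtie2 and CASAVA, with no role or version. The cutoff, and the way replicates were combined, are not stated in those notes. The 3 deposited lists, 1 per line, had 10 columns and no header and were read as MACS peak files. The authors' fold enrichment is a ratio to background. The authors' −log10 p and −log10 q were used as a filter and as another measure of strength, and the deposited score, 10 times the −log10 p, was not used further. The summit is the authors' offset from the peak start. The B6 list's name carries the number 12 where its labels give 13 days.

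Peaks on chromosomes 1 to 19 sharing at least 1 bp were joined, and distances run from edge to edge. Samples were grouped by antibody and line in the labels. Regions were named by fixed rules: the 10 strongest, 5 weakest, 10 farthest from another region, 5 with the largest rank difference, and 5 on each side of the 100 kb limit. The regions, rules and lists were chosen with earlier results of these data known. Medians have 95% order-statistic intervals. The selection was tested on simulated sites whose peaks had the same edges in every list, apart from some split peaks. Staggered overlaps between lists were not covered by it. Alternatives changed the distance, width, peak number, overlap, neighbours, −log10 p, chromosomes, lists and strength measure. Only GRCm38 gene tables were at hand, so gene starts, gene lists, markers and sequence features set out beforehand were not computed. Coordinates count from 1. Software was Python 3.11.15 with pandas 2.3.3, numpy 2.4.6, matplotlib 3.10.9 and scipy 1.17.1.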

Additional observations from a re-analysis of the deposited data

Results flagged for a closer look

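Chromosome X lay outside the comparisons, since the regions were taken from chromosomes 1 to 19, and it held isolated shared sites of the same kind. By the same rule 65 regions of chromosome X were isolated. This was flagged because it was above a fixed limit of 3 for data left out, which is no test of an excess. They were 10.1% of its 642 eligible regions (Wilson interval 8.02 to 12.7), against 1.34% on the other chromosomes. A fixed distance rule leaves more regions isolated where regions are sparser. The density of eligible regions on X was not computed, so these shares are not compared at like density. The isolated X regions had median folds of 17.65 (B6), 11.07 (B6-TgWT) and 12.98 (B6-TgYF). With strength ranked over all peaks including those of X, their median mean percentile was 70.88, and that of the eligible X regions with a neighbour within 100 kb was 69.41. By this measure the median of the isolated regions of X was not lower, unlike on chromosomes 1 to 19. No interval was computed for X, and widths were not matched there. The distance to the nearest region had a median of 147.5 kb.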

How the results depend on the processing

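For 7 results, values were recomputed under alternatives, giving 69 values: 49 stayed inside the interval of the reported value (or, for counts, within a factor of 1.5) and 20 did not. Among the 7 results only the difference in mean percentile has a direction to turn, and it turned in 0 of its alternatives. The other results could not turn direction. Leaving out lists, asking for a neighbour on both sides, width bins and nearer comparison regions were added after the data were seen. No paired analysis was possible because the lists hold no values per replicate, and replicates could not be left out for that reason. Gene-start windows were not run without an mm9 annotation. Unknown depth limits every call of an empty stretch: a region without a listed peak is not shown to lack the mark. The cause was not tested except where an alternative adds or removes regions by construction.

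At 50 kb there were 1468 isolated regions (5.07% of eligible ones), with a median mean percentile of 53.87 and a difference of -8.97 from comparison regions. At 200 kb there were 82 (0.283%). Without width limits the median width was 1314 bp and the mean percentile 42.95. Extending peaks by 500 bp gave a share of 1.54%, and adding chromosome X 1.53%. Counting only shared regions as neighbours gave 1511 (5.22%). With a −log10 p of at least 20, the share was 2.01%, the width 1622 bp, the mean percentile 54.51, the difference -6.74 and the summit span 56 bp. Width bins gave a difference of -9.79. Without the B6-TgWT list there were 756 isolated regions, where sharing was asked of the other 2 lists only. A rank difference over 10 points was found at 54.3%, against 61.4% of eligible regions.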

Other observations

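Regions that were not shared by all lists were isolated more often than shared ones of any width. No other region lay within 100 kb of 1.41% of the 34977 shared regions (interval 1.29 to 1.54), of 4.12% of 8930 found only in the B6-TgWT list (3.73 to 4.55) and of 4.49% of 8517 found only in the B6 list (4.07 to 4.95). The shares were 3.19% of the 4959 regions of B6 and B6-TgYF, 3.61% of the 1303 of B6 and B6-TgWT, 5.12% of 449 found only in the B6-TgYF list and 7.25% of 69 in both transgenic lists (interval 3.13 to 15.9). Median widths differed between these classes, with 1483 bp for shared regions, 1191 bp for B6-TgWT alone and 596 bp for B6 alone, and the shares were not compared at matched width. Of 493 isolated shared regions of any width, the limits on width and peak number left out 86 of 800 bp or less, 3 of 4000 bp or more and 17 with more than 1 peak in a list.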
